A study of Mus musculus with 12 samples.

Results

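Genes of glycolysis and of the hypoxia response are described here in mouse PGCLCs (primordial germ cell-like cells), which are made in culture as a model of the cells from which gametes arise. A list of 38 genes was drawn up, of which 17 encode glycolytic enzymes and the rest are other targets or regulators of the hypoxia-inducible factor (HIF). Rows were found for 36 of them, 15 enzymes and 21 other HIF genes, among 12955 genes in the table, and all 36 were among the 12059 genes with an FPKM (fragments scaled to transcript length and library size) of 1 or more in at least 2 libraries. Gapdh and Pkm were not analysed here.

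The starting cells were male J1 embryonic stem cells in every group, and PGCLCs were sorted from embryoid bodies by the surface markers CD61 and SSEA1. The 12 libraries formed 6 groups of 2. They were EV and OE without a compound at day 2 (D2_EV, D2_OE) and at day 6 (D6_EV, D6_OE), and, at day 2, DMSO for 2 days (D2_DMSO) and dTAG13 for 2 days (D2_dTAG). The labels do not spell out EV and OE, give no vector, promoter, clone or tagged allele, and do not say whether the libraries of a group came from separate cultures, so p-values measure only the spread between these libraries. dTAG13 is a small molecule that recruits suitably tagged proteins for degradation, and DMSO is its solvent. Tex10, the gene in the study's title, had 403 and 378 FPKM in OE against 119 and 145 in EV at day 2, 259 and 269 against 65.7 and 81.5 at day 6, and 45.2 and 36.5 with dTAG13 against 61.7 and 56.8 with DMSO.

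Glycolysis turns glucose into pyruvate in the cytosol. Glucose enters through carriers of the Slc2a family, is trapped by hexokinase, is split by aldolase after the committed step of phosphofructokinase, and leaves as lactate once lactate dehydrogenase has reduced the pyruvate. HIF-1 is a pair of proteins, Hif1a and Arnt. In oxygen the prolyl hydroxylases Egln1 and Egln3 mark Hif1a for destruction through Vhl, so its activity is set mainly at the protein level, which RNA does not measure. When oxygen is low, HIF-1 binds a short core, ACGTG or GCGTG, near its targets, which include most of the glycolytic enzymes, the lactate exporter Slc16a3 and mitochondrial proteins such as Bnip3.

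RefSeq promoter sequences on GRCm38.p6 (mm10), from 250 bases before to 50 after each start, matched 32 of the 36 genes with 49 start sites, Ero1l under its RefSeq name Ero1a. Slc2a3, Bnip3l, Ndufa4l2 and Bhlhe40 had no entry. ACGTG was found on either strand in 26 of the 49 windows (53.1%), against 25.8% of 11739 windows of the genes tested and 19.6% of all 32851 windows. GCGTG, whose matches may overlap those of ACGTG in part, was found in 55.1%, 51.3% and 32.4% of these. By gene, 22 of 32 held ACGTG in at least 1 window (68.8%, against 29.9% of the genes tested). Median GC content was 63.0%, 61.0% and 52.7% in the 3 sets of windows. These letter matches describe the sequences and do not show binding. The list was drawn up from HIF targets and regulators, so the higher shares are no test of the core. Windows of 1 gene can overlap, as for Aldoa, and are not independent.

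The 250 bases before the start are given 5′ to 3′ for 6 genes whose values are described next: Slc16a3, Bnip3, Ldha and Pgk1, which rose strongly by day 6, and Hk2 and Tpi1, which rose in OE at day 2 and of which Tpi1 held neither core. They were chosen after their values were seen. For Ldha the upstream one of 2 start sites is printed. Capitals mark ACGTG or GCGTG and, for the opposite strand, CACGT or CACGC.
Slc16a3, chr11:120948817-120949066, plus strand: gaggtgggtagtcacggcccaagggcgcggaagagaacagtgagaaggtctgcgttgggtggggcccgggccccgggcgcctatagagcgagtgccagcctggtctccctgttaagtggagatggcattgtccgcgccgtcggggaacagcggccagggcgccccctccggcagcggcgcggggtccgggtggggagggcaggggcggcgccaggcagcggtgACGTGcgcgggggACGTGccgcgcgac
Bnip3, chr7:138909507-138909756, minus strand: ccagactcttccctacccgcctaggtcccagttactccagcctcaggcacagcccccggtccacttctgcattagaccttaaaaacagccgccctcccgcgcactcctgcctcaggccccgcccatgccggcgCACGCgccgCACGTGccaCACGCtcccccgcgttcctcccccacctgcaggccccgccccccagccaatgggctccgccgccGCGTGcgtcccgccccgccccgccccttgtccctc
Ldha, chr7:46845554-46845803, plus strand: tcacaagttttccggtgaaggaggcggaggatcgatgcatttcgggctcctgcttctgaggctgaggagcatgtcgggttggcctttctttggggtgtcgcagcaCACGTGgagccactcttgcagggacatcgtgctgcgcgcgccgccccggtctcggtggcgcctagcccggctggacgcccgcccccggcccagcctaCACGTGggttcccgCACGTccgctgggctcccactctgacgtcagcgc
Pgk1, chrX:106186850-106187099, plus strand: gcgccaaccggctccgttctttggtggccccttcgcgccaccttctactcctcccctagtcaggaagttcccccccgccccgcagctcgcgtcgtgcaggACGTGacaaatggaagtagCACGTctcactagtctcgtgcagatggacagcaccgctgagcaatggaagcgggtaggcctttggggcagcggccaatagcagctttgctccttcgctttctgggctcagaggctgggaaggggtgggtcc
Hk2, chr6:82774455-82774704, minus strand: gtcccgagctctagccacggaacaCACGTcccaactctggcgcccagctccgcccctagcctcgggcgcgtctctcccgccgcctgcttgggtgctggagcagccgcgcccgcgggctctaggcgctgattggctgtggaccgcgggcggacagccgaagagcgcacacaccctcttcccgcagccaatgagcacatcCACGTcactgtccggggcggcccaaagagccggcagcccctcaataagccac
Tpi1, chr6:124814159-124814408, minus strand: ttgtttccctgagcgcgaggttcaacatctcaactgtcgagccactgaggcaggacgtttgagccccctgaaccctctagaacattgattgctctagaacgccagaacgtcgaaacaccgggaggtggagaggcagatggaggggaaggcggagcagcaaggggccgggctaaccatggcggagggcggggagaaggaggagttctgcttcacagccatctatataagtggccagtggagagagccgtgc

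The printed stretches held 2 matches of ACGTG for Slc16a3, 2 for Bnip3, 5 for Ldha, 2 for Pgk1 and 2 for Hk2, with both strands counted where the palindrome CACGTG gives a match on each. The Bnip3 stretch also held 3 matches of GCGTG. The 250 bases before the other Ldha start site, not printed, held 0 matches of ACGTG and 1 of GCGTG.

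Of 10 PGCLC markers, all 10 were in the table. Their summed level ran from 932 to 1463 FPKM at day 2 and from 640.3 to 842 at day 6. Ifitm3 held most of that sum at day 2, at 607 to 1042 FPKM, and was at 250.03 to 307 at day 6, while Kit was at 8.80 to 26.3 and at 41.4 to 96.03. Itgb3, which encodes CD61, was low, at 0.73 to 1.29 FPKM in 7 of the 8 day 2 libraries, 0 in the other and 1.72 to 4.39 at day 6. Markers of other cells were summed in the same way. Pluripotency markers (8 of 8 in the table) ran from 2750 to 3622 FPKM at day 2 and from 3260 to 3508 at day 6. The others ran, at day 2 and at day 6, from 0 to 1.23 and from 4.19 to 6.39 FPKM for endoderm (2 of 7 in the table), from 2.74 to 12.5 and from 6.07 to 6.78 for mesoderm (5 of 8), from 32.3 to 74.0 and from 66.2 to 114 for endothelium and blood (3 of 7), and from 46.3 to 129 and from 48.4 to 69.95 for neural ectoderm (3 of 6). Pecam1 alone held most of the endothelium and blood sum, at 31.4 to 66.0 FPKM at day 2 and 63.1 to 112 at day 6. Tubb3 alone held most of the neural ectoderm sum, at 42.7 to 125 and 44.0 to 65.7. The pluripotency sum held opposite moves, with Tdgf1 at 410 to 623 FPKM at day 2 and 1252 to 1468 at day 6. Utf1 was at 693 to 1052 FPKM at day 2 and 256 to 351 at day 6. Trophoblast markers (4 of 6) ran from 2.53 to 32.4 and from 7.93 to 10.2, and the 1 of 6 fibroblast markers found was at 0.83 or less throughout. Their part in the day comparison was not tested.

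Both libraries that stood apart were day 2 libraries. D2_dTAG replicate 1 listed 2008 genes at 0 (15.5%), against 18 to 127 in the others. The members set D2_OE replicate 2 apart from D2_OE replicate 1, as described below. Results of comparisons holding either library are given with and without it, as counts or as changes. Where a fit left 1 library in a group, that library was assumed to vary as the other groups do. Changes are differences in log2(FPKM + 1) from one limma model of all 6 groups, with Benjamini-Hochberg adjustment over all 12059 genes and a threshold of 0.05. This scale understates changes of genes below a few FPKM. The depth of the libraries is unknown.

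The FPKM summed over the 15 enzymes moved mainly with the day. At day 2 it was 4867 and 4518 in EV, 6158 and 6966 in OE, 4365 and 4175 with DMSO and 4366 and 4194 with dTAG13. At day 6 it was 13976 and 12045 in EV and 14656 and 13864 in OE. As a share of all FPKM, the enzymes took 0.745% to 0.805% in day 2 EV, 0.914% and 1.13% in day 2 OE, and 2.16% to 2.54% at day 6. Sorted PGCLCs were measured in bulk, so more cells of a kind and more RNA per cell cannot be told apart.

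**Figure D1:**
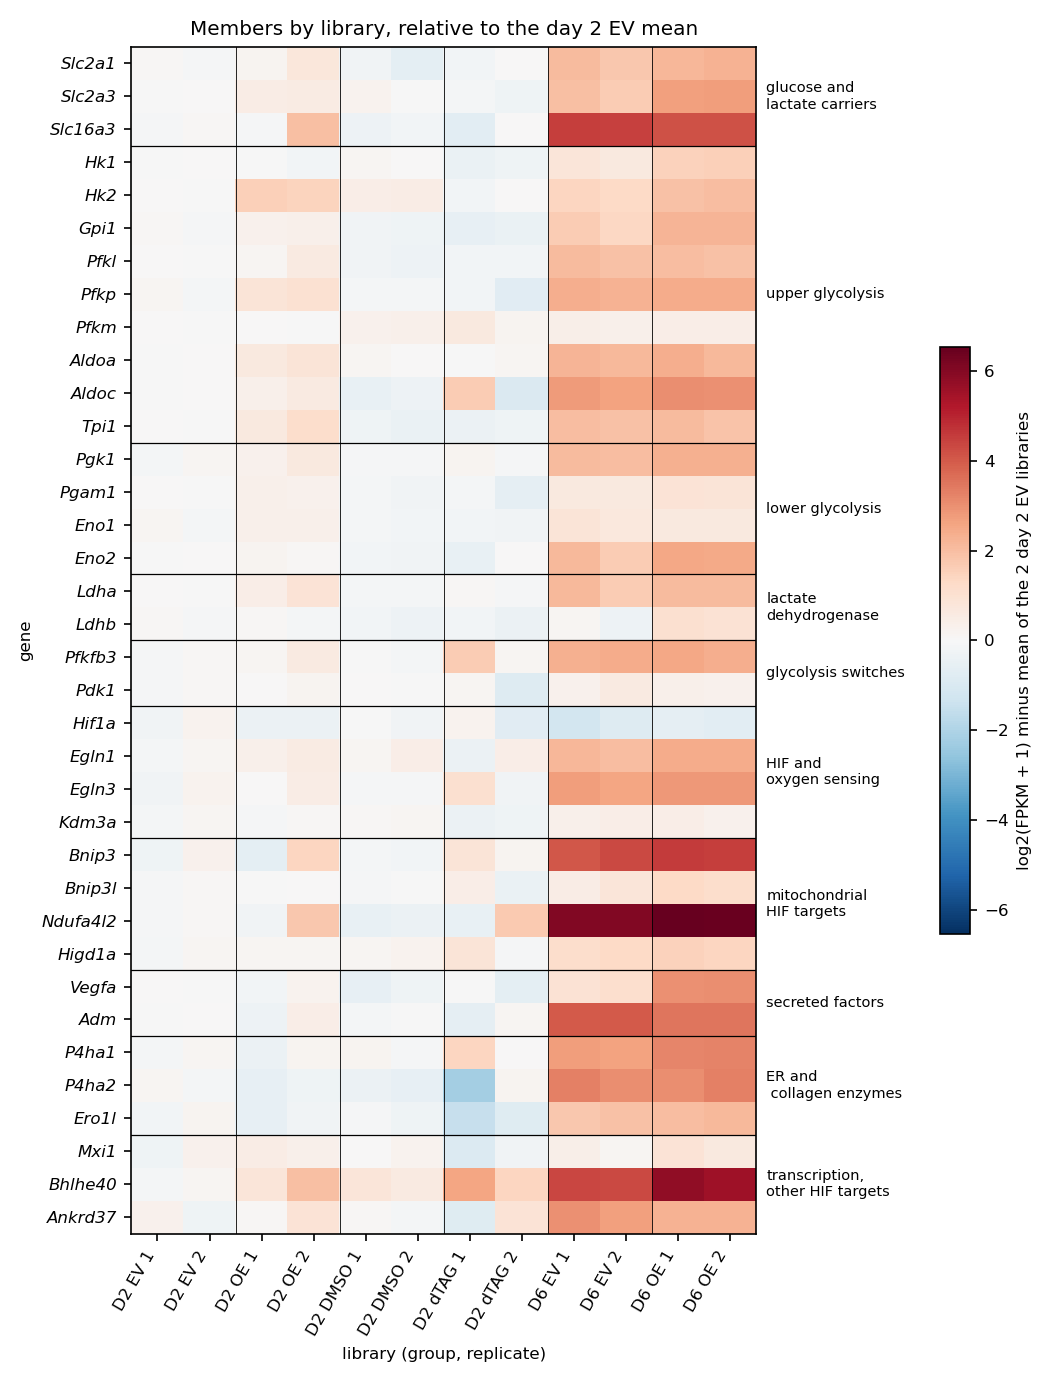
Colour shows log2(FPKM + 1) of each of the 36 genes (rows, grouped by role) in each of the 12 libraries (columns), minus the mean of the 2 day 2 EV libraries; red is higher and blue lower. The 4 day 6 columns on the right are red for most genes, Hif1a is lower there, and among the day 2 columns D2 OE 2 is red for Slc16a3, Bnip3, Ndufa4l2 and Bhlhe40 while D2 OE 1 is not for the first 3.

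From day 2 to day 6 the EV libraries raised most of the list. Of the 36 genes 29 rose and 1 fell, against 13.3% of all genes tested that rose and 10.5% that fell. The median change was 1.92, against 0.04 over all genes. Among enzymes 13 of 15 rose, and among the other HIF genes 16 of 21 rose and 1 fell. In OE, 31 rose and 0 fell between the same days (all genes: 17.5% and 14.7%), with a median of 1.76 against 0.08, and at an unadjusted p below 0.05 the number that fell was also 0, against 2326 of all genes. These 2 comparisons share no library. The 29 genes that rose in EV all rose in OE, 93.5% of the 31. Eno2, Egln1 and Adm are in both counts, but met the filter of 1 FPKM in at least 2 libraries only through day 6. Their rise was thus in part built into the filter, and their p-values by day are no independent support for it. Over all genes, 1183 rose in both, 73.9% of the 1600 in EV and 55.9% of the 2115 in OE. Without D2_dTAG replicate 1, which is in neither comparison but enters the shared spread, 34 passed in EV (all genes: 29.4% higher and 22.7% lower) and 33 in OE (33.2% and 25.7%). With each library of the groups compared left out in turn, 26 to 27 genes passed in EV and 26 to 29 in OE.

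The carriers rose at both ends of the pathway. Slc2a1, the widespread glucose carrier, read 95.9 and 85.5 FPKM in day 2 EV, 104 and 152 in day 2 OE, 76.4 and 57.9 with DMSO, 80.3 and 92.4 with dTAG13, 383 and 314 in EV at day 6 and 416 and 441 in OE at day 6. Slc2a3, a high-affinity glucose carrier, read 296 and 309.9 FPKM in day 2 EV, 426 and 437 in day 2 OE, 359 and 292 with DMSO, 276 and 253 with dTAG13, 1167 and 959 in EV at day 6 and 1973 and 1981 in OE at day 6. Slc16a3, which exports lactate, read 12 and 13.3 FPKM in day 2 EV, 11.8 and 51.6 in day 2 OE, 9.83 and 10.95 with DMSO, 7.44 and 13.03 with dTAG13, 309 and 301 in EV at day 6 and 242 and 239.9 in OE at day 6. For each of the 3 every day 6 library was above every day 2 library, and the lowest day 6 value of Slc16a3 was far above its highest at day 2. In EV, Slc16a3 rose by 4.49 (SE 0.50, adjusted p = 0.000369), Slc2a1 by 1.93 (SE 0.19, adjusted p = 0.000218) and Slc2a3 by 1.80 (SE 0.12, adjusted p = 2.75e-05). In OE the changes were 3.22, 1.76 and 2.19 (adjusted p = 0.00111, 0.000165 and 6.72e-06). The smaller change of Slc16a3 in OE rests largely on D2_OE replicate 2, at 51.6 FPKM against 11.8 in replicate 1.

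In upper glycolysis, 8 of 9 genes rose in EV and the same number in OE. Aldoa, the main aldolase here, read 758 and 762 FPKM in day 2 EV, 1183 and 1342 in day 2 OE, 819 and 777 with DMSO, 734 and 837 with dTAG13, 3605 and 3329.8 in EV at day 6 and 3997 and 3289.7 in OE at day 6. Pfkp, the platelet-type phosphofructokinase, read 44.6 and 37.2 FPKM in day 2 EV, 74.3 and 83.1 in day 2 OE, 37.6 and 37.2 with DMSO, 36.04 and 24.2 with dTAG13, 212 and 203 in EV at day 6 and 223 and 221 in OE at day 6. Pfkl, its liver-type isozyme, read 87.2 and 82.2 FPKM in day 2 EV, 93.7 and 127 in day 2 OE, 72.4 and 66.6 with DMSO, 73.4 and 74.9 with dTAG13, 355 and 325 in EV at day 6 and 344 and 320.3 in OE at day 6. The day 6 libraries were thus all above the day 2 libraries for these 3 genes, with increases in EV of 2.19 (SE 0.12, adjusted p = 1.32e-05) for Aldoa, 2.32 (SE 0.17, adjusted p = 4.39e-05) for Pfkp and 1.99 (SE 0.14, adjusted p = 3.08e-05) for Pfkl. Tpi1, triosephosphate isomerase, read 218 and 212 FPKM in day 2 EV, 335 and 484 in day 2 OE, 179 and 160.5 with DMSO, 167 and 174 with dTAG13, 871 and 805 in EV at day 6 and 897 and 791 in OE at day 6. Gpi1, which isomerises glucose 6-phosphate, read 175 and 158 FPKM in day 2 EV, 201 and 208 in day 2 OE, 141 and 138 with DMSO, 115 and 125 with dTAG13, 519 and 433 in EV at day 6 and 766 and 769 in OE at day 6. Both were higher in every day 6 library, and rose in EV by 1.96 and 1.503 (SE 0.15 and 0.10, adjusted p = 5.88e-05 and 3.47e-05).

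The hexokinases were the lowest of the enzymes described so far. Hk1, the housekeeping hexokinase, read 21.4 and 22.9 FPKM in day 2 EV, 21.9 and 19.5 in day 2 OE, 24.6 and 22.7 with DMSO, 15.8 and 17.8 with dTAG13, 38.5 and 35.2 in EV at day 6 and 63.99 and 65.9 in OE at day 6. Hk2, the inducible form, read 6.74 and 6.51 FPKM in day 2 EV, 21.1 and 19.8 in day 2 OE, 9.33 and 9.49 with DMSO, 5.73 and 6.72 with dTAG13, 19.3 and 17.98 in EV at day 6 and 27.8 and 30.2 in OE at day 6. Aldoc, a minor aldolase, read 4.496 and 4.79 FPKM in day 2 EV, 6.02 and 7.58 in day 2 OE, 3.1 and 3.49 with DMSO, 17.1 and 1.95 with dTAG13, 37.7 and 33.3 in EV at day 6 and 45.6 and 43.1 in OE at day 6. From day 2 to day 6 in EV, Hk2 rose by 1.36 (SE 0.15, adjusted p = 0.000369), Hk1 by 0.71 (SE 0.13, adjusted p = 0.00397) and Aldoc by 2.69 (SE 0.61, adjusted p = 0.0114). In OE, Hk1 rose by 1.60 and Hk2 by 0.48 (adjusted p = 3.65e-05 and 0.0348), from a day 2 level of Hk2 that was already above that of EV. The Hk2 libraries of day 6 EV, at 19.3 and 17.98 FPKM, were below those of day 2 OE, at 21.1 and 19.8. Pfkm, the muscle-type phosphofructokinase, stayed between 10.7 and 17.8 FPKM in all 12 libraries and passed in neither comparison (0.35 in EV and 0.42 in OE, adjusted p = 0.181 and 0.0963).

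Lower glycolysis rose in all 4 measured genes. Pgk1, phosphoglycerate kinase, read 119 and 142 FPKM in day 2 EV, 157 and 201 in day 2 OE, 124 and 122 with DMSO, 148 and 125 with dTAG13, 542 and 535 in EV at day 6 and 647 and 657 in OE at day 6. Pgam1, phosphoglycerate mutase, read 179.9 and 169.8 FPKM in day 2 EV, 222 and 212 in day 2 OE, 159.7 and 149 with DMSO, 159 and 118 with dTAG13, 273 and 269.8 in EV at day 6 and 323 and 319 in OE at day 6. Eno1, the main enolase and at day 2 the highest of the 36 genes in FPKM, read 1914 and 1639 FPKM in day 2 EV, 2197 and 2231 in day 2 OE, 1599.7 and 1538 with DMSO, 1578 and 1512 with dTAG13, 3142 and 2878 in EV at day 6 and 2794 and 2756 in OE at day 6. Pgk1 had the largest increase of these in EV, at 2.04 (SE 0.14, adjusted p = 2.75e-05), while Eno1 rose by 0.76 (adjusted p = 0.000592) and Pgam1 by 0.63 (adjusted p = 0.00603). Eno2, the neuronal enolase, read 0.392 and 0.421 FPKM in day 2 EV, 0.594 and 0.486 in day 2 OE, 0.221 and 0.189 with DMSO, 0 and 0.423 with dTAG13, 5.02 and 3.48 in EV at day 6 and 6.99 and 6.87 in OE at day 6. It rose by 1.88 in EV and 2.37 in OE (adjusted p = 0.000478 and 7.24e-05), from less than 1 FPKM at day 2. Eno2 met the filter only through the day 6 libraries, where it was high.

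The lactate dehydrogenase subunits parted. Ldha, the subunit that favours making lactate, read 899.7 and 876 FPKM in day 2 EV, 1199.6 and 1636 in day 2 OE, 819 and 806 with DMSO, 933 and 852 with dTAG13, 3897 and 2837 in EV at day 6 and 3669 and 3786 in OE at day 6. Ldhb, the subunit that favours using lactate, read 428 and 395 FPKM in day 2 EV, 435 and 382 in day 2 OE, 362 and 331 with DMSO, 366 and 314 with dTAG13, 445 and 325 in EV at day 6 and 836 and 791 in OE at day 6. Ldha rose by 1.90 (SE 0.16, adjusted p = 0.000101) in EV and 1.41 in OE (adjusted p = 0.000231). Ldhb moved by -0.11 in EV (adjusted p = 0.634), where the libraries of the 2 days overlapped, and rose by 0.99 (SE 0.15, adjusted p = 0.00084) in OE.

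Of the 2 switches at the edges of glycolysis, Pfkfb3, which makes the activator of phosphofructokinase, read 0.49 and 0.704 FPKM in day 2 EV, 0.722 and 1.35 in day 2 OE, 0.554 and 0.464 with DMSO, 3.96 and 0.757 with dTAG13, 7.02 and 7.63 in EV at day 6 and 8.102 and 7.22 in OE at day 6. It rose by 2.39 in EV and 2.10 in OE (adjusted p = 0.00262 and 0.00314). Pdk1, which inhibits pyruvate dehydrogenase and so limits the oxidation of pyruvate in the mitochondria, ranged from 22.5 to 61.6 FPKM and passed in neither comparison (0.42 and 0.19, adjusted p = 0.255 and 0.612).

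**Figure D2:**
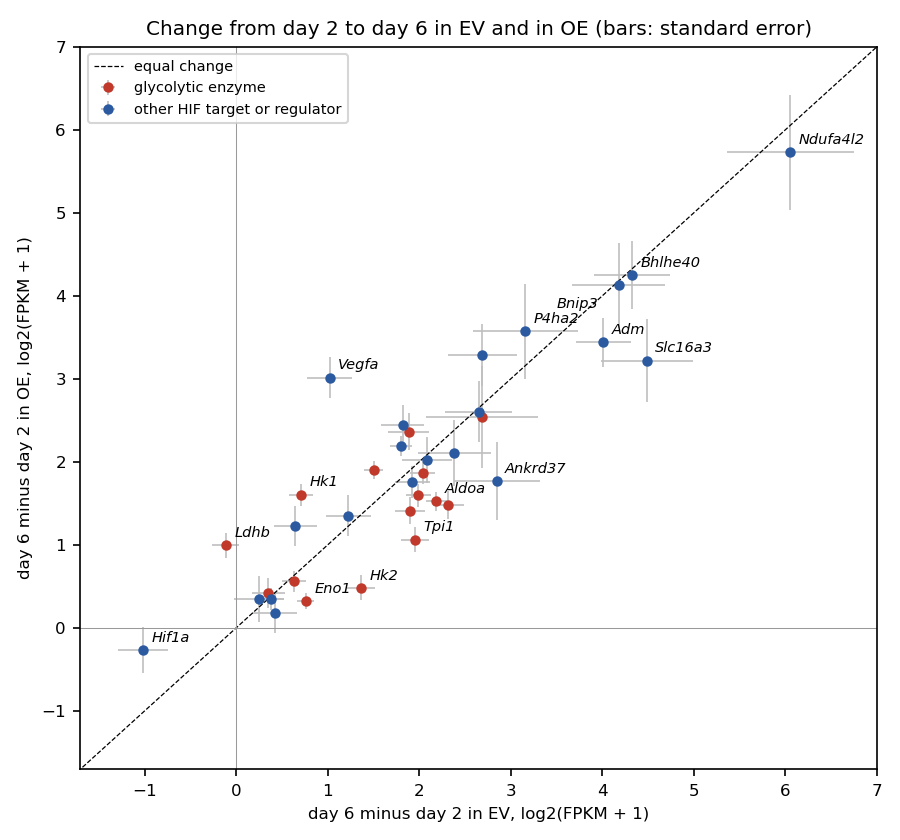
Each point is 1 of the 36 genes, with its change from day 2 to day 6 in EV on the horizontal axis and in OE on the vertical axis, both in log2(FPKM + 1), and bars of 1 standard error. Most points lie near the dashed line of equal change. Vegfa, Hk1 and Ldhb lie above it and Hk2, Tpi1 and Slc16a3 below it, and Hif1a is the 1 gene below 0 on both axes. Slc16a3 read 11.8 and 51.6 FPKM in day 2 OE, so its distance from the line rests largely on D2_OE replicate 2.

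The oxygen-sensing genes did not move as a block. Hif1a itself read 42.1 and 58.2 FPKM in day 2 EV, 37.97 and 38.2 in day 2 OE, 48.4 and 41.5 with DMSO, 57.7 and 29.7 with dTAG13, 21.1 and 27.2 in EV at day 6 and 33.02 and 30.1 in OE at day 6. It fell by 1.02 (SE 0.27, adjusted p = 0.024) in EV, with both day 6 libraries below both day 2 libraries. In OE its change was -0.27 (SE 0.27, adjusted p = 0.5). The fall in EV did not pass without D2_EV replicate 2 (-0.79, adjusted p = 0.165), without D6_EV replicate 1 (-0.84, adjusted p = 0.169) or without D6_EV replicate 2 (-1.19, adjusted p = 0.0544). Egln3, a prolyl hydroxylase that is also a HIF target, read 1.27 and 2.23 FPKM in day 2 EV, 1.71 and 2.73 in day 2 OE, 1.54 and 1.53 with DMSO, 4.58 and 1.33 with dTAG13, 16.8 and 15.2 in EV at day 6 and 18.5 and 18.2 in OE at day 6. Egln1, the main prolyl hydroxylase, read 0.197 and 0.466 FPKM in day 2 EV, 0.671 and 0.887 in day 2 OE, 0.426 and 0.788 with DMSO, 0 and 0.82 with dTAG13, 4.96 and 4.31 in EV at day 6 and 6.23 and 6.17 in OE at day 6. Both hydroxylases rose in both comparisons, in EV by 2.65 (SE 0.37, adjusted p = 0.00113) and 2.09 (SE 0.28, adjusted p = 0.000927), and every day 6 library was above every day 2 library. Egln1 was below 1 FPKM in every day 2 library and met the filter only through day 6. Kdm3a, a histone demethylase, ranged from 23.4 to 42.4 FPKM and passed in neither (0.38 and 0.35, adjusted p = 0.0721 and 0.0797).

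The mitochondrial HIF targets ranged from Ndufa4l2, with the largest increase of the 36 genes in both EV and OE, to Bnip3l, with a change that did not pass in EV. Ndufa4l2, which dampens the respiratory chain, read 0.348 and 0.479 FPKM in day 2 EV, 0.188 and 3.79 in day 2 OE, 0 and 0.0697 with DMSO, 0 and 3.62 with dTAG13, 93.8 and 92.3 in EV at day 6 and 129.6 and 122 in OE at day 6. Bnip3, a receptor for the removal of mitochondria, read 15.2 and 22.7 FPKM in day 2 EV, 11.6 and 51.6 in day 2 OE, 16.8 and 16.3 with DMSO, 33.5 and 21.5 with dTAG13, 325 and 386 in EV at day 6 and 462 and 439.8 in OE at day 6. Day 6 levels of both were far above day 2 in every library, with increases in EV of 6.06 (SE 0.69, adjusted p = 0.000428) and 4.18 (SE 0.51, adjusted p = 0.000602), and in OE of 5.73 and 4.13 (adjusted p = 0.000283 and 0.000316). Higd1a, a respiratory supercomplex protein, read 33.8 and 41.7 FPKM in day 2 EV, 40.9 and 40.7 in day 2 OE, 40.96 and 43.4 with DMSO, 68.97 and 35.1 with dTAG13, 85.1 and 93.5 in EV at day 6 and 110.2 and 101 in OE at day 6. Bnip3l, the relative of Bnip3, read 40.6 and 43.8 FPKM in day 2 EV, 40.8 and 42.8 in day 2 OE, 39.9 and 41.01 with DMSO, 57.7 and 30.5 with dTAG13, 60.3 and 73.4 in EV at day 6 and 105 and 94.1 in OE at day 6. Higd1a rose by 1.23 in EV and 1.35 in OE (adjusted p = 0.00625 and 0.00273). Bnip3l rose in OE by 1.23 (SE 0.24, adjusted p = 0.00343) and moved by 0.65 in EV (adjusted p = 0.0748).

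Among secreted factors, Adm, the vasodilator adrenomedullin, read 0.497 and 0.544 FPKM in day 2 EV, 0.191 and 1.05 in day 2 OE, 0.408 and 0.519 with DMSO, 0 and 0.649 with dTAG13, 23.4 and 23.7 in EV at day 6 and 16.1 and 15.8 in OE at day 6. Vegfa, which drives blood vessel growth, read 1.05 and 0.991 FPKM in day 2 EV, 0.767 and 1.34 in day 2 OE, 0.409 and 0.649 with DMSO, 0.969 and 0.305 with dTAG13, 2.83 and 3.38 in EV at day 6 and 15.2 and 15.7 in OE at day 6. The 2 genes sat at 1.34 FPKM or less in all day 2 libraries, and Adm met the filter only through day 6. Adm rose by 4.01 (SE 0.30, adjusted p = 4.96e-05) in EV and Vegfa by 1.02 (SE 0.24, adjusted p = 0.0141). In OE the increases were 3.44 for Adm and 3.02 for Vegfa (adjusted p = 4.97e-05 and 3.67e-05).

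The oxygen-consuming enzymes of the endoplasmic reticulum all rose. P4ha1, a catalytic subunit of collagen prolyl 4-hydroxylase, read 4.32 and 5.23 FPKM in day 2 EV, 3.49 and 5.63 in day 2 OE, 5.43 and 4.38 with DMSO, 14.1 and 4.83 with dTAG13, 37.4 and 34.99 in EV at day 6 and 51.4 and 53.3 in OE at day 6. P4ha2, its paralogue, read 5.82 and 4.86 FPKM in day 2 EV, 3.36 and 4.24 in day 2 OE, 3.93 and 3.42 with DMSO, 0.352 and 6.07 with dTAG13, 61.4 and 50.1 in EV at day 6 and 51.4 and 60.7 in OE at day 6. Ero1l, an oxidase that forms disulfide bonds, read 18.4 and 24.4 FPKM in day 2 EV, 14.6 and 17.9 in day 2 OE, 20.01 and 17.2 with DMSO, 6.91 and 12.1 with dTAG13, 73.1 and 82.2 in EV at day 6 and 90 and 95.3 in OE at day 6. The 4 day 6 libraries were above the 8 day 2 libraries in each case. In EV the increases were 2.69 (SE 0.37, adjusted p = 0.00111) for P4ha1, 3.16 (SE 0.57, adjusted p = 0.00384) for P4ha2 and 1.82 (SE 0.23, adjusted p = 0.000783) for Ero1l. In OE they were 3.29, 3.57 and 2.45 (adjusted p = 0.000203, 0.00133 and 8.21e-05).

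Of the remaining genes, Bhlhe40, a transcriptional repressor, read 1.66 and 2.08 FPKM in day 2 EV, 4.02 and 10.3 in day 2 OE, 3.95 and 3.37 with DMSO, 16.3 and 6.51 with dTAG13, 57.4 and 55.4 in EV at day 6 and 156 and 130.3 in OE at day 6. Ankrd37, an ankyrin repeat protein, read 6.51 and 4.15 FPKM in day 2 EV, 5.62 and 10.7 in day 2 OE, 5.62 and 4.72 with DMSO, 2.64 and 10.7 with dTAG13, 48.8 and 39.2 in EV at day 6 and 28.5 and 29.3 in OE at day 6. Bhlhe40 rose by 4.33 (SE 0.41, adjusted p = 0.00017) in EV and 4.25 in OE, and Ankrd37 by 2.85 (SE 0.47, adjusted p = 0.00258) and 1.77 (OE adjusted p = 8.53e-05 and 0.0174). Mxi1, an antagonist of MYC, ranged from 0.43 to 3.88 FPKM and passed in neither comparison (0.25 and 0.35, adjusted p = 0.56 and 0.372).

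Other genes of the pathway were read from lists that hold none of these members. Of 28 further HIF targets tested, 19 rose and 1 fell in EV (all genes: 13.3% and 10.5%). In OE 20 rose and 1 fell (all genes: 17.5% and 14.7%), with medians of 1.16 in EV and 1.13 in OE. In OE without D2_OE replicate 2 their median was also 1.13, while fewer of them and of all genes passed. Ccng2, a cyclin linked to growth arrest, read 1.12 and 1.68 FPKM in day 2 EV, 1.34 and 4.48 in day 2 OE, 2.604 and 1.74 with DMSO, 6.49 and 2.52 with dTAG13, 22.6 and 24.4 in EV at day 6 and 35.4 and 37.1 in OE at day 6, and rose by 3.36 in EV and 3.38 in OE. Loxl2, a collagen cross-linking oxidase, rose by 2.87 and 2.86 (adjusted p = 2.75e-05 and 1.42e-05). It was below 1 FPKM in every day 2 library and met the filter only through day 6, as did some other genes of these lists. Plod2, a collagen lysyl hydroxylase, rose by 2.25 and 2.28, and Ddit4, an inhibitor of mTORC1 signalling, by 2.198 and 2.91. Hmox1, haem oxygenase, was the 1 gene of this list that fell, with changes of -0.66 in EV and -0.89 in OE. Of 14 HIF pathway components, 1 rose in EV, and 2 rose and 3 fell in OE. Counts this small do not set the components apart from the shares of all genes just given. Arnt, the partner of Hif1a, rose in both, by 0.63 and 0.68 (adjusted p = 0.0408 and 0.024). The median of the components in OE was -0.22, and -0.29 without D2_OE replicate 2. In that fit fewer components and fewer of all genes passed, and Arnt was 0.60 and did not pass.

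Neighbouring routes of glucose use were read against the same shares of all genes, 13.3% that rose and 10.5% that fell in EV and 17.5% and 14.7% in OE. No difference between these lists was tested. Of 13 genes of gluconeogenesis and glycogen, 5 rose and 1 fell in EV and 7 rose and 0 fell in OE. Pgm2, a phosphoglucomutase, read 7.88 and 8.58 FPKM in day 2 EV, 8.94 and 16.4 in day 2 OE, 10.6 and 8.84 with DMSO, 12.9 and 9.396 with dTAG13, 143 and 129 in EV at day 6 and 119.99 and 153 in OE at day 6, and rose by 3.89 (SE 0.26, adjusted p = 2.75e-05) in EV and 3.38 in OE. The glycogen phosphorylase Pygl and the branching enzyme Gbe1 rose as well, by 2.08 and 1.72 in EV. Of 8 pentose phosphate genes, 0 rose and 2 fell in EV and 1 rose and 1 fell in OE. G6pdx, the entry enzyme of that route, fell in both, with changes of -0.66 and -1.26 (adjusted p = 0.0191 and 0.000491), and Rpe, an epimerase of the same route, fell in EV, with a change of -0.996. Of 13 genes of pyruvate entry to mitochondria, 3 rose and 1 fell in EV and 4 rose and 1 fell in OE. The kinases Pdk2 and Pdk3, which like Pdk1 inhibit pyruvate dehydrogenase, rose in EV by 1.12 and 0.53, and Pdha1, a subunit of that dehydrogenase, changed by -0.90. Of 10 further isozymes, 2 rose and 0 fell in EV and 2 rose and 1 fell in OE. Of 6 genes listed with further sugar and monocarboxylate carriers, 4 rose and 0 fell in EV, and 4 rose and 0 fell in OE. Txnip, described below, was among those that rose. In OE the medians were 0.63 for gluconeogenesis and glycogen, 0.03 for pentose phosphate, 0.29 for pyruvate entry, 0.17 for isozymes and 1.13 for carriers. Without D2_OE replicate 2 they were 0.66, -0.09, 0.24, 0.15 and 1.08. Fewer genes of each list, and of all genes, passed in that fit.

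MYC proteins also act on glycolytic genes. Of 12 genes of that family, 2 rose and 2 fell in EV (all genes: 13.3% and 10.5%). In OE 2 of the 12 rose and 1 fell (all genes: 17.5% and 14.7%), so the family was not set apart from all genes by these counts. The median of the MYC family in OE was 0.002, and 0.05 without D2_OE replicate 2. Myc read 70.4 and 65.2 FPKM in day 2 EV, 97.9 and 74.3 in day 2 OE, 43.2 and 54.7 with DMSO, 26.1 and 20.97 with dTAG13, 8.92 and 17.2 in EV at day 6 and 5.06 and 3.45 in OE at day 6. It fell by 2.36 (SE 0.28, adjusted p = 0.000544) in EV and fell by 4.05 (SE 0.28, adjusted p = 1.93e-05) in OE, with all 4 day 6 libraries below all 8 day 2 libraries. Mycn changed by -1.78 in EV (adjusted p = 0.000674).

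OE against EV at day 2 asked what higher Tex10 went with in early PGCLCs. Of the 36 genes 4 rose and 0 fell, against 0.44% of all genes that rose and 0.406% that fell. All 4 were enzymes of upper glycolysis, of 9 in that group, and none of the 21 other HIF genes passed. Hk2 rose by 1.49 (SE 0.15, adjusted p = 0.00506), from 6.74 and 6.51 to 21.1 and 19.8 FPKM, a ratio of means of 3.09. Pfkp rose by 0.93 (SE 0.17, adjusted p = 0.0408), from 44.6 and 37.2 to 74.3 and 83.1 FPKM. Tpi1 rose by 0.90 (SE 0.15, adjusted p = 0.0299) and Aldoa by 0.73 (SE 0.12, adjusted p = 0.0255), and for all 4 both OE libraries were above both EV libraries and above the DMSO and dTAG13 libraries. At an unadjusted p below 0.05, 13 were higher and 0 lower, against 901 and 582 of all genes.

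The other genes gave smaller or more scattered values at day 2. Ldha was 0.66 higher in OE (adjusted p = 0.118), Slc2a3 0.51 (0.0994) and Bhlhe40 1.40 (0.176). The median over the 36 was 0.33, against 0.04 over all genes. For 18 of the 36 both OE libraries were above both EV libraries, against 31.1% of all genes, and for 3 both were below, against 22.6%.

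The day 2 call rested on few libraries. With 1 library of the groups compared left out, most or all of the 4 calls were lost, and so were most calls over all genes. Hk2 was 1.54 without D2_OE replicate 2 and 1.47 without D2_EV replicate 2, and passed in neither fit. Without D2_dTAG replicate 1, 11 genes passed, all higher (all genes: 8.01% higher and 6.02% lower): the 4 already named with Aldoc, Bhlhe40, Eno1, Ldha, Pgam1, Pgk1 and Slc2a3. With both D2_dTAG replicate 1 and D2_OE replicate 2 left out, 5 passed, all higher (all genes: 5.75% and 2.42%), which were Hk2 at 1.54, Pfkp at 0.85, Tpi1 at 0.64, Aldoa at 0.64 and Bhlhe40 at 0.81. In that fit the lone D2_OE library was assumed to vary as the other groups do. The fit was not planned, and was chosen after the members had set D2_OE replicate 2 apart.

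**Figure D3:**
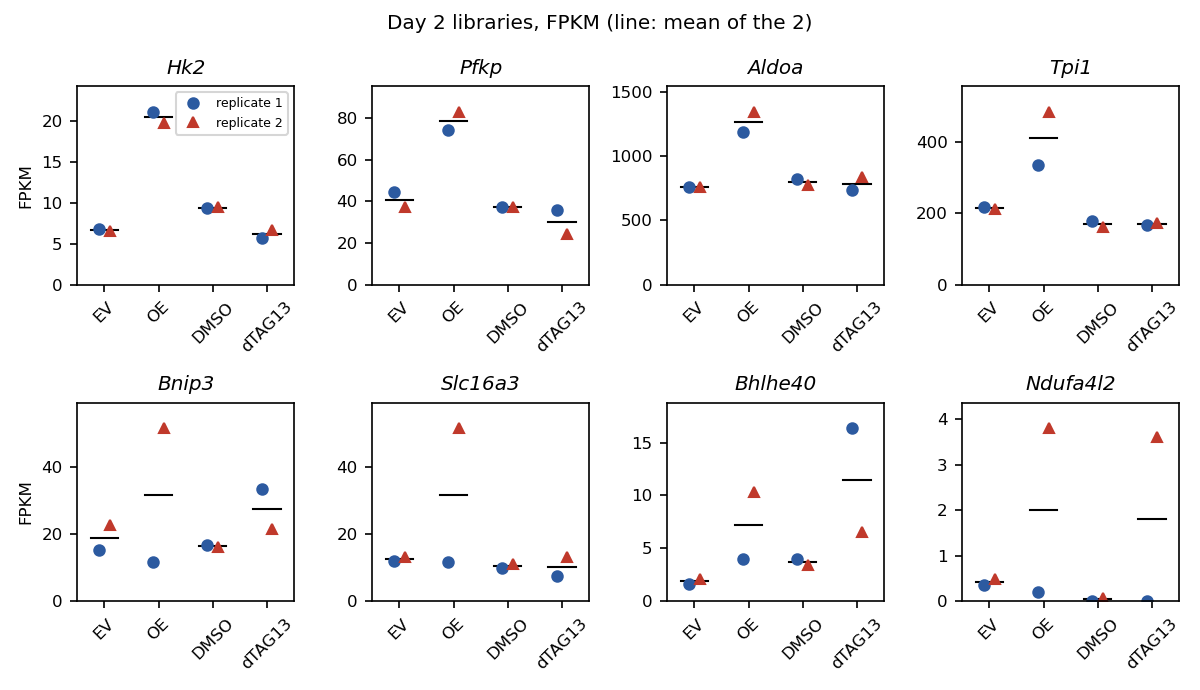
FPKM of 8 genes in the 8 day 2 libraries, by group, on axes that start at 0, with circles for replicate 1, triangles for replicate 2 and a line at the mean. In the upper row both OE libraries are above the rest for Hk2, Pfkp, Aldoa and Tpi1. In the lower row D2_OE replicate 2 is far above replicate 1 for Bnip3, Slc16a3, Bhlhe40 and Ndufa4l2, and the dTAG13 libraries differ from each other for Bhlhe40 and Ndufa4l2.

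The day 2 OE libraries differed from each other in several genes that rose by day 6. Slc16a3 read 11.8 and 51.6 FPKM in them, Bnip3 11.6 and 51.6, Ndufa4l2 0.188 and 3.79 and Bhlhe40 4.02 and 10.3. In replicate 2 the first 3 were higher by 2.04, 2.06 and 2.01 and Bhlhe40 by 1.17. Hk2, Pfkp and Aldoa differed less, by -0.09, 0.16 and 0.18, and Tpi1 by 0.53. Of the 29 genes that rose by day 6 in EV, 24 were higher in replicate 2, with a median difference of 0.35. Of 1571 other genes that rose by day 6 in EV, 47.7% were higher there, with a median of -0.01. Across the 36 genes the replicate difference and the day 6 change in EV, which share no library, had a Pearson r of 0.84 and a Spearman rho of 0.82, against a Pearson r of 0.25 over 12023 other genes. Genes are not independent replicates, and all points share the same 2 libraries. The same correlation was 0.07 for the DMSO pair, 0.29 for the dTAG13 pair and 0.07 for the day 6 OE pair. Without D2_OE replicate 2, the OE changes at day 2 were -0.63 for Bnip3, -0.25 for Ndufa4l2 and -0.09 for Slc16a3, where with it they were 0.40, 0.76 and 0.93. None of these 6 values passed.

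**Figure D4:**
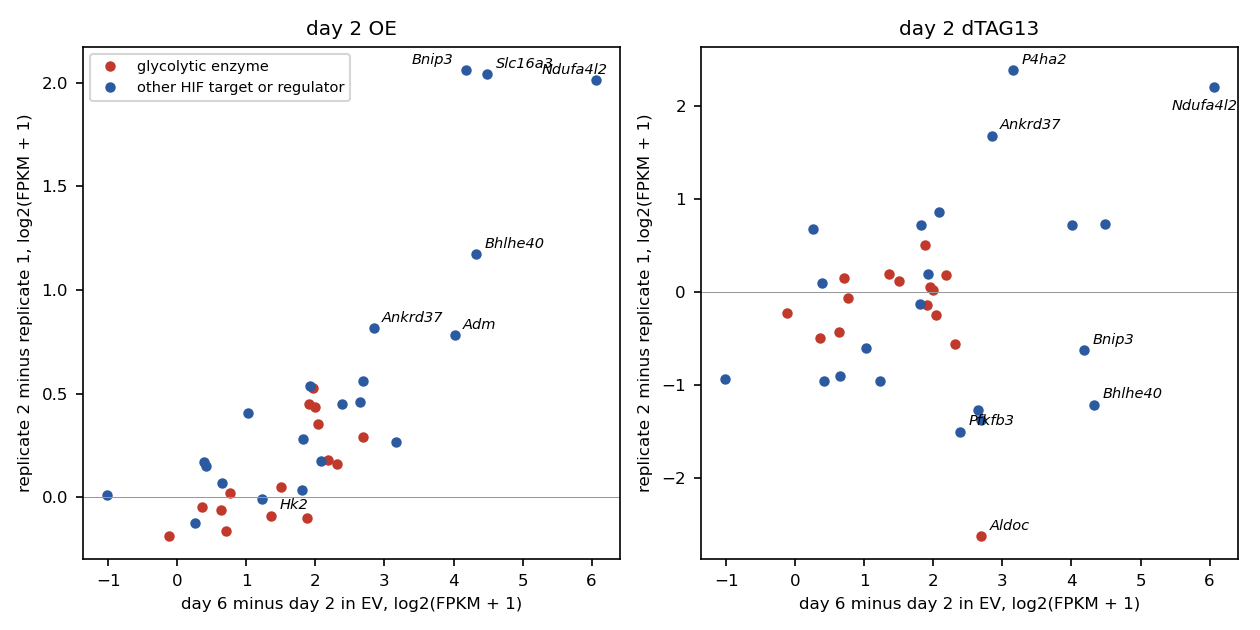
Replicate 2 minus replicate 1 of day 2 OE (left) and of day 2 dTAG13 (right) against the day 6 minus day 2 change in EV, all in log2(FPKM + 1), for the 36 genes. On the left the points climb from near 0 to about 2 for Bnip3, Slc16a3 and Ndufa4l2. On the right they scatter on both sides of 0, with Aldoc lowest and P4ha2 highest.

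OE against EV at day 6 picked out other genes. Of the 36 genes 5 rose and 0 fell, against 1.92% and 1.79% of all genes. Vegfa rose by 2.00 (SE 0.24, adjusted p = 0.00381), from 2.83 and 3.38 to 15.2 and 15.7 FPKM, a ratio of means of 4.97. Ldhb rose by 1.09 (SE 0.15, adjusted p = 0.00602), from 445 and 325 to 836 and 791 FPKM. Both OE libraries were far above both EV libraries in each. Slc2a3 rose by 0.90 (SE 0.12, adjusted p = 0.00602), Hk1 by 0.80 (SE 0.13, adjusted p = 0.0115) and Gpi1 by 0.70 (SE 0.10, adjusted p = 0.00974), also with no overlap between the groups. At an unadjusted p below 0.05, 9 were higher and 0 lower, against 1199 and 974 of all genes.

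For 24 of the 36 genes both OE libraries were above both EV libraries at day 6, against 39.3% of all genes, and for 4 both were below, against 29.5%. Among those that did not pass, Bhlhe40 was 1.32 (SE 0.41, adjusted p = 0.118) and Hk2 0.61 (adjusted p = 0.0568). Adm was -0.53, Ankrd37 -0.58 and Slc16a3 -0.34 (adjusted p = 0.388, 0.58 and 0.79), and these 3 and Eno1, at -0.12, were the 4 with both OE libraries below both EV libraries. Aldoa, Pfkp and Tpi1, which had risen in OE at day 2, were at 0.07, 0.10 and 0.01. The median over the 36 was 0.26, against 0.05 over all genes. Without D6_EV replicate 2, D6_OE replicate 1 or D6_OE replicate 2, none of the 36 passed, Vegfa included, and most calls over all genes were lost as well. Without D2_dTAG replicate 1, 10 passed, all higher (all genes: 14.3% higher and 11.0% lower): the 5 named with Bhlhe40, Bnip3l, Eno2, Hk2 and P4ha1.

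The OE effect at day 6 minus that at day 2 tested whether the days differed. Of the 36 genes 0 passed in limma, against 0.232% of all genes. At an unadjusted p below 0.05, 10 did, 5 in each direction, against 10.8% of all genes. Vegfa came nearest, at 1.99 (SE 0.34, adjusted p = 0.0607), then Ldhb at 1.11 (SE 0.21, adjusted p = 0.0742) and Hk1 at 0.89 (SE 0.18, adjusted p = 0.0958). On the other side Tpi1 was -0.90 (SE 0.21, adjusted p = 0.131) and Hk2 -0.88 (SE 0.22, adjusted p = 0.138). Without D2_dTAG replicate 1, 9 passed (all genes: 5.56% higher and 5.55% lower), with Vegfa, Ldhb, Hk1, Hif1a and Bnip3l higher at day 6 and Tpi1, Hk2, Pfkp and Aldoa lower. With D2_OE replicate 2 left out as well, 8 passed (all genes: 2.55% and 4.59%), among them Vegfa at 2.196, Ldhb at 1.01, Hk1 at 0.81 and Hk2 at -0.92.

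Several of these genes lie on chromosome 6, whose 512 tested genes outside the list had a median OE change of 0.14 at day 2 and 0.18 at day 6. They are Kdm3a, Hk2, Bhlhe40, Slc2a3, Eno2, Tpi1 and Ldhb. The 10 nearest tested genes on each side of Hk2 (chr6:82725025-82774454, GRCm38) had medians of 0.08 and 0.01, those of Slc2a3 0.27 at both days, and those of Ldhb (chr6:142490249-142507957) 0.19 and 0.38. Around Tpi1 (chr6:124810586-124814296) the median was 0.33 at day 2. Relative to their neighbours, Hk2 was 1.42 at day 2 and passed, Tpi1 was 0.54 and did not (adjusted p = 0.207), and Ldhb was 0.70 at day 6 and did not (adjusted p = 0.0769). On chromosome 8, the 20 nearest tested genes around Ankrd37 had medians of -0.48 at day 2 and -0.40 at day 6, where Ankrd37 was 0.50 and -0.58. What part the region plays in these genes was not tested further.

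The share of an isozyme in its family did not always follow its level, as with Hk2 in OE, whose level rose by day 6 while its share fell. Hk2 made up 24.0% and 22.2% of hexokinase FPKM (Hk1 and Hk2) in EV at day 2, against 49.0% and 50.4% in OE. It made up 27.5% to 29.5% with DMSO, 26.6% to 27.4% with dTAG13, 33.4% to 33.8% in day 6 EV and 30.3% to 31.4% in day 6 OE. Day 2 OE was thus alone near an even split. Ldhb made up 32.2% and 31.1% of lactate dehydrogenase FPKM in EV at day 2, against 26.6% and 18.9% in OE. By day 6 its share was 10.3% in both EV libraries and 18.6% and 17.3% in OE.

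**Figure D5:**
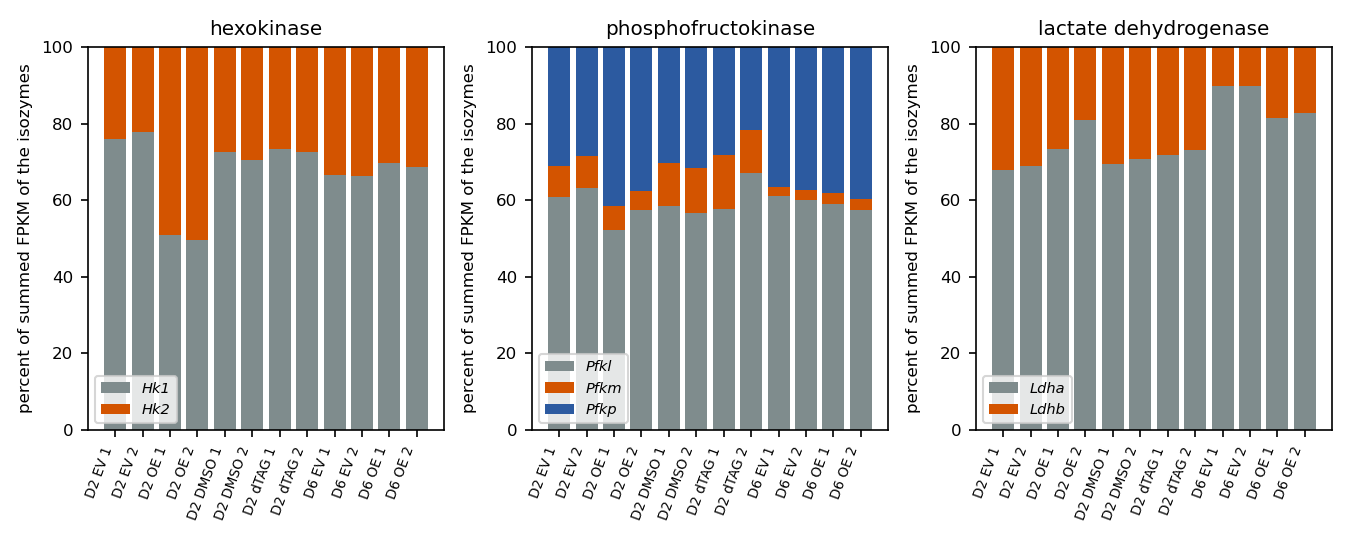
Stacked bars give each isozyme's percent of the summed FPKM of its family (hexokinase, phosphofructokinase, lactate dehydrogenase) in each of the 12 libraries. Hk2 is near 50% only in the 2 day 2 OE bars, and Ldhb is at its lowest, 10.3%, in the 2 day 6 EV bars.

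With dTAG13 against DMSO at day 2, 0 of the 36 genes rose and 3 fell, against 4.01% of all genes that rose and 8.21% that fell. Ero1l fell by 0.94 (SE 0.23, adjusted p = 0.0307), Hk2 by 0.53 (SE 0.15, adjusted p = 0.0491) and Hk1 by 0.47 (SE 0.13, adjusted p = 0.042). Ero1l read 20.01 and 17.2 FPKM with DMSO and 6.91 and 12.1 with dTAG13, and in all 3 both dTAG13 libraries were below both DMSO libraries. The median gene moved by -0.13 in this comparison, and at an unadjusted p below 0.05, 2 of the 36 were higher and 6 lower, against 1082 and 2714 of all genes. None of the 3 passed under median-ratio scaling, where Ero1l was -0.86 (adjusted p = 0.0662).

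The dTAG13 libraries disagreed on several HIF targets. Aldoc read 17.1 and 1.95 FPKM in them, P4ha1 14.1 and 4.83, P4ha2 0.352 and 6.07 and Ankrd37 2.64 and 10.7. For each, the DMSO libraries lay between the 2 dTAG13 libraries or close to one of them. Without D2_dTAG replicate 1, 11 passed, 3 higher and 8 lower (all genes: 6.34% and 17.0%). Without D2_dTAG replicate 2, 16 passed, 8 higher and 8 lower (all genes: 26.3% and 33.9%). Both fits hold 1 dTAG13 library, so that the spread came from the other groups. Ero1l, Hk2 and Hk1 were -0.58, -0.43 and -0.39 without D2_dTAG replicate 1, and passed in both fits.

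Among the other lists dTAG13 moved single genes. Txnip, which restrains glucose uptake, read 13.2 and 11.6 FPKM in day 2 EV, 22.6 and 23.1 in day 2 OE, 50.7 and 38.1 with DMSO, 128 and 115 with dTAG13, 54.9 and 46.4 in EV at day 6 and 122 and 127 in OE at day 6. It rose by 1.44 (SE 0.15, adjusted p = 0.000709) with dTAG13, and in OE by 0.83 at day 2 and 1.28 at day 6 (adjusted p = 0.0433 and 0.00371). From day 2 to day 6 it rose by 1.95 in EV and 2.40 in OE (adjusted p = 6.15e-05 and 1.38e-05). Its DMSO libraries were also above day 2 EV, by 1.75 (adjusted p = 0.000907). Fbp2, a gluconeogenic fructose bisphosphatase, read 13.7 and 13.7 FPKM in day 2 EV, 4.38 and 4.18 in day 2 OE, 13.5 and 13.9 with DMSO, 44.6 and 32.6 with dTAG13, 10.7 and 10.4 in EV at day 6 and 2.43 and 3.14 in OE at day 6. Fbp2 rose with dTAG13 by 1.41 and fell in OE, with changes of -1.48 at day 2 and -1.62 at day 6 (adjusted p = 0.00266, 0.011 and 0.00355). Fbp1, its paralogue, changed by -1.32 in OE at day 2. Epas1, which encodes the HIF-2 alpha subunit, read 8.99 and 8.35 FPKM with DMSO and 1.07 and 2.404 with dTAG13 (-1.87, adjusted p = 0.0039). Slc16a1, another lactate carrier, read 21.4 and 20.3 and 6.61 and 9.09 (-1.32, adjusted p = 0.00131). Plin2, a lipid droplet protein among the further HIF targets, read 10.7 and 11.5 FPKM in day 2 EV, 16.7 and 13.6 in day 2 OE, 31.1 and 27.3 with DMSO, 100.3 and 84.2 with dTAG13, 29.96 and 24.4 in EV at day 6 and 48.4 and 47.6 in OE at day 6. It rose with dTAG13 by 1.62 and in OE at day 6 by 0.80. The dTAG13 changes of these genes also passed without D2_dTAG replicate 1, with 1.36 for Txnip, 1.19 for Fbp2, -1.51 for Epas1, -1.12 for Slc16a1 and 1.4998 for Plin2. Without D2_OE replicate 2, the OE changes at day 2 were 0.82 for Txnip, -1.45 for Fbp2 and -1.14 for Fbp1. They did not pass in that fit, where nearly all calls over all genes were lost.

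Of the 28 further HIF targets, 4 rose and 1 fell with dTAG13, against 4.01% and 8.21% of all genes, and 7 rose and 1 fell without D2_dTAG replicate 1 (all genes: 6.34% and 17.0%). In OE at day 2, 0 of them passed in limma, against 0.44% and 0.406% of all genes, 5 were higher and 0 lower at an unadjusted p below 0.05, and without D2_dTAG replicate 1, 3 rose and 1 fell (all genes: 8.01% and 6.02%). In OE at day 6, 3 rose and 0 fell, against 1.92% and 1.79%.

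Between the 2 kinds of day 2 control, DMSO and EV, 0 of the 36 genes passed in limma, against 0.249% of all genes that were higher with DMSO and 0.141% lower. At an unadjusted p below 0.05, 1 was higher and 3 were lower, against 670 and 406 of all genes. The changes ran from -0.45 to 0.70. Their median was -0.11 over the 36 genes and -0.17 over the 15 enzymes, against 0.03 over all genes.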

How the data were processed

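Poly(A)-enriched RNA was sequenced, per the labels. Per the submitters' processing notes, reads were processed with FastQC 0.10.1, Trim Galore 0.6.3, cutadapt, STAR 2.7.6a and Cufflinks 2.2.1 on mm10. The deposited table holds FPKM plus 1 for 12955 genes, inferred from its digits (90.1% of values from 1.1 to 2 had 7 or more digits, against 0% from 2 to 10), and 1 was subtracted. Depth is unknown. Genes with FPKM of 1 or more in at least 2 libraries (12059) were fitted on log2(FPKM + 1) (pseudocount 1) with limma 3.58.1 in R 4.3.3, trended prior, 1 model of 6 groups with 6 residual degrees of freedom. An adjusted p below 0.05 passed. Positions came from GENCODE M21 by symbol, and promoters from RefSeq. The scripts were tested on simulated data.

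Members and lists were chosen with earlier results of these data known. Values in every library are given for each member past the threshold in any comparison other than DMSO against EV. Other lists name members among the first 3 per comparison by size, not all of them. Further genes and values (Hmox1, Aldoc, P4ha1, P4ha2, Ankrd37, Bhlhe40, Adm and Slc16a3 where they did not pass, and the promoters printed) were chosen after their values were seen. Alternatives covered the pseudocount, the filter, scaling, a replicate block, the groups fitted, the trend, libraries left out, and centring on the chromosome or on neighbours. The fit without both D2_dTAG replicate 1 and D2_OE replicate 2, and all libraries left out for the other lists, were chosen after seeing the data. Figures were drawn with matplotlib 3.10.9, and summaries made with numpy 2.4.6 and pandas 2.3.3 in Python 3.11.15.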

Additional observations from a re-analysis of the deposited data

Results flagged for a closer look

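For 3 genes both OE libraries lay on one side of both EV libraries at day 2 and on the other side at day 6. Over all genes, both OE libraries were above both EV libraries for 31.1% at day 2 and 39.3% at day 6. They were below for 22.6% and 29.5%. Such a lack of overlap was thus common, and the share of all genes that switched sides was not counted. Eno1 was higher in OE at day 2 and lower at day 6, with a difference of OE effects of -0.44 (SE 0.13, adjusted p = 0.233). Ero1l was lower and then higher, with a difference of 0.63 (SE 0.33, adjusted p = 0.553). Hif1a was likewise lower and then higher, with 0.75 (SE 0.39, adjusted p = 0.538). None of the 3 differences passed the limma test over all genes in the model of 12 libraries. Without D2_dTAG replicate 1 that of Hif1a passed (adjusted p = 0.0434), and those of Eno1 and Ero1l did not (adjusted p = 0.061 and 0.0644).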

How the results depend on the processing

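The counts of members past the threshold were 30 and 31 for the day comparisons in EV and OE, and no alternative moved them by over 1.5 times. Leaving out 1 library at a time, the counts ran from 26 to 34 for the day in EV, 26 to 33 for the day in OE, 0 to 11 for OE at day 2, 0 to 10 for OE at day 6, 0 to 9 for the difference of OE effects, 0 to 16 for dTAG13 and 0 to 1 for DMSO against EV. Calls over all genes moved with the fits too. For OE at day 2, where 4 passed, the count was 2 with median-ratio scaling, 7 with only the groups compared, 1 without a trend and 2 when centred on neighbours. Over all genes, 53 were higher and 49 lower in the main fit. In these fits, in the same order, it was 77 and 96, 518 and 514, 22 and 33, and 38 and 46. For OE at day 6, where 5 passed, the count was 9 with a pseudocount of 5 (8 higher, 1 lower), 19 with only the groups compared (16 higher, 3 lower) and 3 when centred on neighbours. Over all genes, 232 were higher and 216 lower in the main fit, and 389 and 280, 1971 and 1458, and 187 and 257 in these. For the difference of OE effects, where 0 passed, the count was 1 with a pseudocount of 5, quantile normalization, median-ratio scaling, the replicate block or chromosome centring, and 8 with only the groups compared. Over all genes, 8 were higher and 20 lower in the main fit, and 591 and 581 with only the groups compared. For dTAG13, where 3 passed, the count was 1 with quantile normalization (higher), 0 with median-ratio scaling, only the groups compared or chromosome centring, and 1 with the replicate block (lower). Over all genes, 483 were higher and 990 lower in the main fit. In these fits, in the same order, it was 730 and 704, 709 and 598, 0 and 0, 740 and 497, and 478 and 871. The causes were not tested, except that fits of fewer libraries estimate another spread.

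Of values for named genes under the alternatives, 2198 kept their side of the threshold, 182 no longer passed, 58 passed only then and 14 changed sign. Sign changes came with neighbour centring for Hif1a with dTAG13 (0.0032) and Eno1 by day in OE (-0.0046), and with quantile normalization for Ldhb (0.1261) and Mxi1 (-0.0888) by day in EV. With 1 library left out, Hif1a ran from -0.5774 to 0.3569 with dTAG13 and from -0.3706 to 0.0889 in DMSO against EV, and by day in EV Ldhb ran from -0.3372 to 0.1140 and Mxi1 from -0.0217 to 0.5242. In OE at day 2, Bnip3 ran from -0.6339 to 1.4255, Ndufa4l2 from -0.2492 to 1.7631 and Slc16a3 from -0.0906 to 1.9497, and each had the lower value also without D2_dTAG replicate 1 and D2_OE replicate 2.

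The labels do not say that replicate numbers pair libraries across groups. Replicate differences of the groups compared correlated between -0.1158 and 0.2521 across genes, so the numbers were not taken as a pairing. With the replicate block the counts were those given, and other counts stayed within 1.5 times. Depth is unknown, so the precision of members below a few FPKM, such as Vegfa, Adm, Eno2 and Ndufa4l2 at day 2, cannot be stated.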
